A study of Mus musculus with 9 samples.

Results

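Cell lines grown out of lung metastases of the 4T1 mouse mammary carcinoma were compared with cell lines grown out of primary 4T1 tumors. The comparison holds 6 of the series' 9 arrays, 3 labelled 4T1-LM2 (lung metastasis) and 3 labelled 4T1-T2 (primary tumor). It covers every probe set with exactly 1 gene symbol, with the brightest probe set over the 9 arrays taken for each gene, which gives 19938 genes. The remaining 3 arrays, labelled 4T1-BM2 (brain metastasis), enter only to help estimate the spread and to place the lung lines. All 9 lines descend from 4T1, each came from a mouse of its own, and per the series' design text they were thawed, grown and extracted side by side. No treatment, mouse strain, age, injection route or passage number is given in the sources used here, and neither is the meaning of the 2 in the line names. RNA came from cultured cells and not from tissue, so the levels describe the lines after growth in culture.

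4T1 is a transplantable mammary carcinoma line of BALB/c mice that spreads from the mammary fat pad to lung, liver, bone and brain. It is widely used as a model of advanced breast cancer. Cells that settle in the lung leave the vessel, survive in the alveolar tissue and resume growth, and genes of secreted factors, adhesion and growth control have been tied to these steps in other breast cancer models. A line re-derived from a metastasis can carry a stable difference from its parent, or can resemble lines from the primary tumor once both grow on plastic. The comparison addresses which of these the RNA levels show, and how large a difference could have been missed with 3 lines per origin.

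The values are log2 levels made with RMA, so a difference of 1 is 2-fold. No gene differed between lung and primary lines at an adjusted p under 0.05 (limma, Benjamini-Hochberg), which is 0 of 19938 genes or 0%. At an unadjusted p under 0.05 stood 946 genes, 4.74% of all genes, where 996.9 would be expected from flat p-values. Of these, 541 (2.71%) had the higher mean in lung lines and 405 (2.03%) the lower. The count of 946 depended on the setting and ran from 739 to 1156 with 1 line left out. It was 1202 with the mouse number as a replicate block and 1644 with array weights. Among the 11677 genes without equal values in any 2 of the 6 lines it was 664, a share above 0.05. In the same model the brain lines differed from the primary lines in 624 genes (3.13%) and from the lung lines in 395 genes (1.98%), so the arrays did resolve differences of another origin. The lung and brain comparisons share the 3 primary lines.

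The distance between a pair of lines was taken as the median absolute log2 difference over all genes. The primary lines lay 0.0899 to 0.104 from one another (mean 0.0993) and the lung lines 0.0892 to 0.133 (mean 0.116). A lung line lay 0.0945 to 0.132 from a primary line, with a mean of 0.110 over 9 pairs. Lines of different origin were therefore about as close as lines of the same origin. The mean distance between the origins exceeded that within them by 0.00208, with p = 0.3 in the exact permutation test over the 6 lines, whose smallest possible p is 0.1. Brain lines lay farther off, at a mean of 0.124 from primary and 0.131 from lung lines. They also lay 0.105 to 0.128 from one another (mean 0.118), so part of this distance was spread among the brain lines. Lung lines 2 and 3 were 0.0892 apart, the smallest distance among all pairs of the 9 lines. Lung line 1 was 0.127 and 0.133 from them and 0.114 from primary line 1, so the nearest line to lung line 1 was a primary one.

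**Figure D1:**
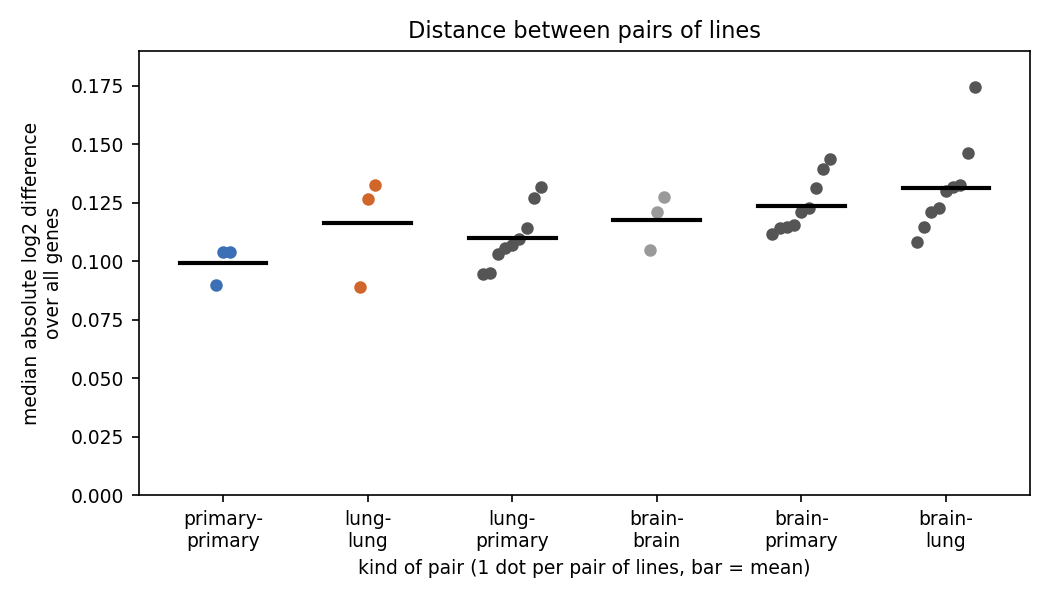
Distance between pairs of lines, as the median absolute log2 difference over all genes, by kind of pair; each dot is 1 pair and each bar the mean. The lung-primary pairs (0.0945 to 0.132, mean 0.110) cover the same range as the lung-lung pairs (0.0892 to 0.133), and the brain-lung pairs reach the highest distances.

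The first principal component of the 6 lines held 30.1% of their variance and set lung line 1 (score -21.0) apart from the other lines (scores from -5.22 to 10.2). The second held 24.8% and set primary line 3 (-19.4) apart from the rest (-3.60 to 8.94). The origins came apart on the third, which held 20.8%: the lung lines scored 6.92, 11.1 and 4.39 and the primary lines -13.6, -9.58 and 0.821. Taken relative to each gene's median over the 9 lines, the values of an array had an interquartile range of 0.164 in lung line 1 and 0.0886 to 0.111 in the other lung and primary lines. Single lines thus differed more than the origins did, and a described difference that 1 line moved by over 1.5 times is in most cases given without it as well. With both left out, no gene passed either (smallest adjusted p = 0.244, limma).

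A threshold that no gene passes does not show that levels were equal, so the interval of each difference was examined. The 95% interval reached 0.21 on the log2 scale to either side of the estimate in the median gene, or 1.16-fold. It reached at most 0.39 in 95% of genes. The largest fold difference still inside the interval, in either direction, was 1.22-fold for the median gene and at most 1.49-fold for 95% of genes. These are statements about single genes, without adjustment over the 19938.

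To show that a difference is small, each gene was tested against bounds in both directions with adjustment over all genes (a pair of one-sided limma tests). A difference of 1.5-fold or more was excluded in 19329 genes (96.9%) and a difference of 2-fold or more in 19848 genes (99.5%). For 90 genes a 2-fold difference was not excluded, and for 6 genes a 4-fold difference was not. The 6 were Xlr, E330013P04Rik, Gatm, Prl3d3, Cck and Zfp979. Among the 14065 genes with both group means at or above 4.21, the median of probe sets without a symbol, 84 lacked the 2-fold bound and 99.4% had it. Split by brightness into 3 parts of 6646 genes, 7 dim, 54 middle and 29 bright genes lacked the 2-fold bound.

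The size a measured difference needs to be called depends on how many genes differ. Had 1 gene differed, the median gene needed a measured log2 difference of 0.93 (1.90-fold) to pass, and 95% of genes needed at most 3.26-fold. Had 100 genes differed, the median gene needed 0.53 (1.45-fold) and 95% of genes at most 1.98-fold. Smaller measured differences in few genes would thus have gone uncalled in most cases with 3 lines per origin. A true difference of just these sizes can be measured as smaller, so somewhat larger true differences could be missed as well. In 8261 genes (41.4%) at least 2 of the 6 lines had exactly equal deposited values, including 573 genes equal in all 3 primary lines, 382 in all 3 lung lines and 26 in all 6. Such genes had narrower intervals, with a median reach of 0.19 against 0.23 in the others, and without them the smallest adjusted p was 0.269.

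**Figure D2:**
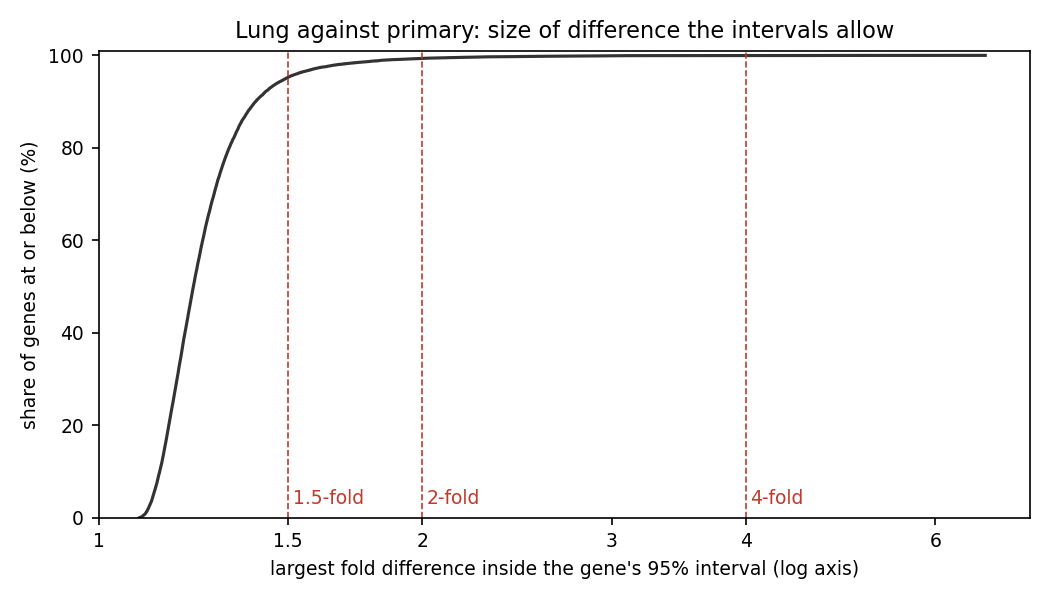
Share of genes (%) whose 95% interval of lung against primary stays at or below a given fold difference in either direction (log axis), with marks at 1.5-fold, 2-fold and 4-fold. The curve passes its middle at 1.22-fold and reaches 95% of genes at 1.49-fold.

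All 3 lung lines lay on the same side of all 3 primary lines in 1737 genes (8.71%), 972 (4.88%) above and 765 (3.84%) below. With 3 lines against 3, labels without effect would separate a gene without equal values in this way with a probability of 0.1. The share over all genes was below that, but 8261 of them had equal values in at least 2 of the 6 lines. Among the 11677 genes without equal values, 1413 were separated in this way, a share above 0.1. That excess was not tested. In no gene was the gap between the nearest lung and primary line as wide as 2-fold. It was 1.5-fold or wider in 4 genes, counted after the values were seen. In 3 of them the mean over the 6 lines was at or above 4.21, namely Padi3 (1.72-fold), Anxa8 (1.57-fold) and Gatm (1.55-fold). The fourth, Zfp979, a zinc finger protein gene with the widest gap and the smallest unadjusted p of all genes, was at 5.10, 4.44 and 5.12 in primary and 2.92, 3.54 and 3.28 in lung lines. Its lung lines lay below 4.21, where a level may be background, so no fold is given, and the brain lines were at 5.57, 5.34 and 4.77. Below, the 12 genes with the smallest unadjusted p in each direction are described, among genes with both group means at or above 4.21 and without predicted genes, small RNA genes and large families such as olfactory receptors. Each had an adjusted p of 0.975 (limma, Benjamini-Hochberg), and they are given as the leading candidates of a comparison that called none. A choice by smallest p also favors genes whose origins do not overlap.

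The widest difference among them was in Gatm, which encodes the enzyme that starts creatine synthesis by joining arginine and glycine. Its log2 level was 6.56, 6.16 and 4.95 in primary lines 1 to 3 and 7.19, 7.60 and 7.77 in lung lines 1 to 3. Every lung line was above every primary line, and primary line 3 was the lowest by a wide gap. The log2 difference was 1.63 ± 0.34 (SE, n = 3 per origin), or 3.10-fold, with a 95% interval from 0.88 to 2.38 and an unadjusted p of 0.00071 (limma). Without primary line 3 it was 1.16. In the brain lines Gatm stood higher still, at 8.78, 8.93 and 8.97, though brain against lung did not pass (adjusted p = 0.078, limma).

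Gamt, the enzyme of the second step of creatine synthesis, was at 7.48, 7.68 and 7.66 in primary and 7.85, 7.97 and 7.84 in lung lines, a log2 difference of 0.28 (95% interval 0.06 to 0.50). Ckb, the brain-type creatine kinase, went the other way, at 8.71, 8.94 and 8.83 in primary and 8.41, 8.49 and 8.40 in lung lines, a difference of -0.39 (-0.68 to -0.10). In both genes the origins did not overlap. The creatine transporter Slc6a8 and the kinases Ckmt1, Ckm and Ckmt2 had unadjusted p-values above 0.05 and log2 differences from -0.16 to 0.08. Of the 7 genes of creatine synthesis, uptake and kinases, 3 (42.9%) were thus at an unadjusted p under 0.05, 2 higher and 1 lower. Over all genes the share was 4.74%, and the list was chosen with earlier results of these data known. The median of the 7 was 0.01, as was that of all genes.

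Cck, which encodes the peptide hormone cholecystokinin, was at 4.98, 4.98 and 4.34 in primary lines and 7.05, 6.18 and 5.51 in lung lines. The lung lines were all higher and lay farther from one another than the primary lines did. The log2 difference was 1.48 ± 0.33 (SE), or 2.79-fold, with a 95% interval from 0.75 to 2.21, and it ran from 1.08 without lung line 1 to 1.84 without lung line 3. The brain lines, at 4.71, 4.40 and 4.55, lay with the primary lines near background. Brain minus lung was -1.69 (adjusted p = 0.031, limma), a call that was lost without any 1 of the brain lines, lung lines 1 and 2 and primary lines 1 and 2 (adjusted p from 0.057 to 0.115).

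Ccl2, the chemokine that draws monocytes into tissue, was at 5.04, 5.05 and 4.61 in primary and 5.34, 5.87 and 5.90 in lung lines. The origins did not overlap, and the log2 difference was 0.80 (1.75-fold, 95% interval 0.44 to 1.17). In the brain lines it was at 4.71, 4.65 and 4.52, and brain minus lung was -1.08 (adjusted p = 0.015, limma). That call was lost without lung line 2 (adjusted p = 0.077) or lung line 3 (0.057). Of the other secreted signals, Il33 had a difference of 0.43 and Ccl7 of -0.15, and Cxcl5, a neutrophil chemokine, had 0.47 (95% interval -0.02 to 0.96). Of 33 chemokines and cytokines 2 were higher and 1 was lower at an unadjusted p under 0.05, and of 22 of their receptors 1, Il13ra1 (0.42), was higher. The counts were 9.09% and 4.55% of the lists, beside 4.74% of all genes.

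Plscr2, a phospholipid scramblase, which are proteins tied to the movement of lipids between membrane leaflets, was at 7.67, 7.44 and 6.84 in primary and 8.11, 8.38 and 8.72 in lung lines. The difference was 1.09 (2.12-fold, 95% interval 0.56 to 1.61) without overlap, and 0.85 without primary line 3. Plscr4 had 0.34 (0.11 to 0.57), and the median of the 4 scramblases measured was 0.28. In the brain lines Plscr2 was at 8.99, 8.59 and 9.22, while Plscr4 was lower than in lung lines, by -0.64 (adjusted p = 0.018, limma). The Plscr4 call was lost without brain line 2 (adjusted p = 0.056), brain line 3 (0.054), lung line 1 (0.059) or lung line 3 (0.063).

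Ccn2 and Ankrd1, both well-known targets of the growth regulators YAP and TEAD, were among the 12. Ccn2, which encodes a secreted matrix-associated protein, was at 8.54, 8.94 and 8.63 in primary and 9.30, 9.44 and 9.46 in lung lines, a difference of 0.70 (1.62-fold, 95% interval 0.34 to 1.05). Ankrd1, a nuclear ankyrin repeat protein, was at 10.13, 10.15 and 10.38 in primary and 10.55, 10.61 and 10.80 in lung lines, a difference of 0.43 (0.21 to 0.65). Neither overlapped between origins. The YAP and TEAD list as a whole did not stand with them: 2 of 20 members were higher and 1, Crim1 (-0.21), was lower at an unadjusted p under 0.05, with a median of 0.07. Ccn2 was far higher in the brain lines, at 10.75, 10.78 and 11.34, with brain minus lung at 1.55 (adjusted p = 0.0038, limma), a call kept without any single line.

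The remaining genes with higher means had smaller differences in most cases. Dlg4, a scaffold protein of synapses, was at 5.31, 6.06 and 5.88 in primary and 6.46, 6.56 and 6.44 in lung lines, a difference of 0.74 (95% interval 0.35 to 1.12). Sh2d1b1, an adaptor of immune cell signaling, had 0.61, and Tnip1, an inhibitor of NF-kappaB signaling, had 0.38. Teddm1b had 0.40 and Myo1h, an unconventional myosin, 0.26. Me1, the cytosolic malic enzyme that makes NADPH, had 0.27 (0.13 to 0.42), with lung lines at 9.09, 9.14 and 9.16 and primary lines at 8.84, 8.94 and 8.80. In each of these the lung lines lay close together, with an SD from 0.0087 in Myo1h to 0.092 in Teddm1b.

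Among the 12 genes with lower means in lung lines, Padi3 had the widest gap. It encodes a peptidylarginine deiminase, an enzyme that turns arginine in proteins into citrulline. Its level was 8.24, 7.48 and 7.41 in primary and 6.57, 6.63 and 6.48 in lung lines, so that the lung lines were tightly grouped and primary line 1 was the highest. The log2 difference was -1.15 ± 0.20 (SE), a 2.22-fold lower level, with a 95% interval from -1.60 to -0.70 and an unadjusted p of 0.00022 (limma). Without primary line 1 it was -0.89. The brain lines, at 7.79, 7.68 and 7.34, were at the level of the primary lines. Brain minus lung was 1.04 (adjusted p = 0.031, limma), and that call was lost without brain line 1 (adjusted p = 0.091), brain line 2 (0.095) or any 1 of the lung lines (0.10 to 0.11). The family did not share the pattern, since Padi1 had 0.37, Padi2 0.12 and Padi4 -0.05, each with an interval that spans 0.

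Dapk1, a calmodulin-regulated kinase that promotes cell death, was at 6.63, 6.49 and 6.68 in primary and 4.92, 5.48 and 6.03 in lung lines. The primary lines were close together and the lung lines spread over more than 2-fold below them. The difference was -1.12 ± 0.22 (SE), 2.17-fold lower, with a 95% interval from -1.61 to -0.63. It ran from -0.84 without lung line 1 to -1.40 without lung line 3, where its adjusted p was 0.213 (limma). The brain lines were lower still, at 4.81, 4.70 and 4.81. The other members of its family, Stk17b, Dapk2 and Dapk3, had differences of -0.16, 0.05 and 0.02.

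Tmem185b, a membrane protein, had the smallest p of all named genes, 0.00020 unadjusted, with 8.10, 8.21 and 8.22 in primary and 7.56, 7.81 and 7.76 in lung lines. Its difference was only -0.47 (1.38-fold lower, 95% interval -0.65 to -0.29). Trp53inp1, a p53 target that takes part in stress responses and autophagy, was at 6.87, 7.08 and 7.44 in primary and 6.19, 6.55 and 6.71 in lung lines, a difference of -0.65 (-1.02 to -0.28). Vash2, a tubulin carboxypeptidase, had -0.54 (-0.84 to -0.25). In all 3 genes the origins did not overlap. Cenpk, a centromere protein, had -0.41, Zdhhc17, a palmitoyltransferase, -0.39, and Erbin, a scaffold at the basolateral membrane, -0.32. Abl2, a cytoplasmic tyrosine kinase, had -0.31, Cd24a, the cell surface glycoprotein CD24, -0.30, Ccnjl, a cyclin-like protein, -0.30, and Smarcc2, a subunit of the BAF chromatin remodeler, -0.25.

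**Figure D3:**
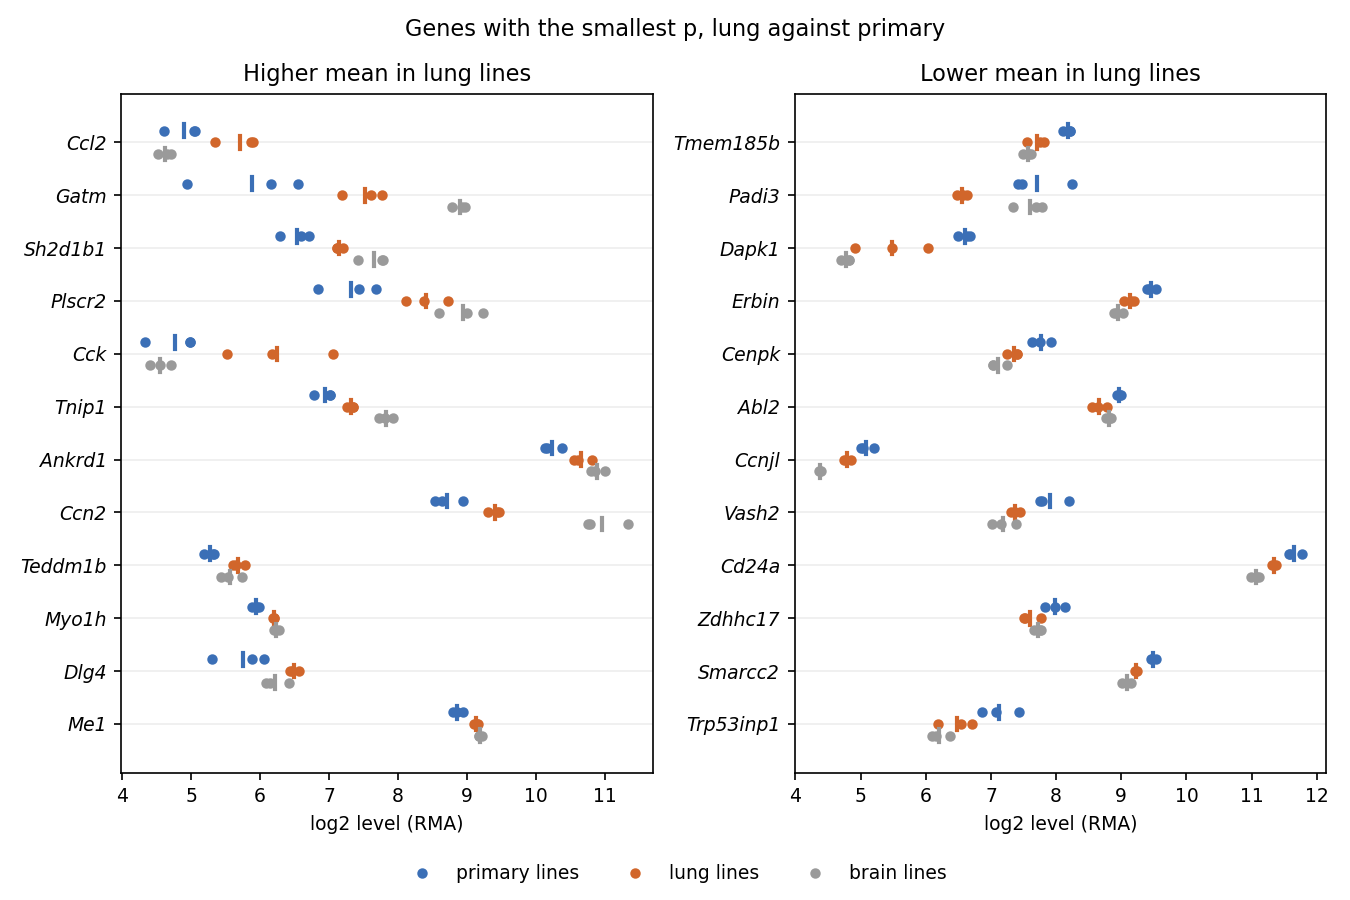
Log2 level (RMA) in each line for the 12 genes with the smallest unadjusted p among those higher (left) and lower (right) in lung lines, by origin; dots are lines and vertical bars are means. Lung and primary dots do not overlap in any of these genes, while the brain lines lie beyond the lung lines in some (Gatm, Ccn2) and with the primary lines in others (Cck, Ccl2, Padi3).

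Of 23 genes that earlier work on other models tied to breast cancer spread to lung, 0 were called, and 1, Mmp1a, was at an unadjusted p under 0.05. That is 4.35% of the list, beside 4.74% of all genes. A 2-fold difference was excluded in 22 of the 23 (99.5% of all genes) and a 1.5-fold difference in 19 (96.9% of all genes). The list was thus bounded less often than genes at large. Both group means were at or above 4.21 in 18 of the 23, and below that level a bound says little. Mmp1a, an interstitial collagenase, was at 5.49, 6.35 and 5.41 in primary and 4.61, 5.12 and 5.39 in lung lines, with a difference of -0.71 (95% interval -1.30 to -0.13), the only one of the 23 that lacked the 2-fold bound. Without primary line 2 it was -0.41. It was lower, not higher, in the lung lines, and lung line 3 lay just under the lowest primary line.

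Several genes of this list are given for their standing in the field, outside the naming rule. Cxcl1, a neutrophil chemokine, was at 7.63, 7.43 and 7.28 in primary and 7.49, 7.43 and 7.43 in lung lines, a difference of 0.00 (95% interval -0.19 to 0.20). Ptgs2, the inducible cyclooxygenase, was at 10.87, 11.04 and 11.50 in primary and 11.07, 10.80 and 10.87 in lung lines, a difference of -0.23 (-0.57 to 0.12). Id1, an inhibitor of differentiation, was at 8.22, 8.76 and 7.40 in primary and 8.30, 8.54 and 7.92 in lung lines, a difference of 0.13 (-0.52 to 0.78), so lines of 1 origin differed by more than the origins did. For Vcam1, an adhesion receptor, the difference was -0.10 (-0.55 to 0.35), for Tnc, the matrix protein tenascin C, -0.19 (-0.88 to 0.51), and for Cxcr4, a chemokine receptor, -0.23 (-0.59 to 0.14). S100a4, a calcium-binding protein of motile cells, was at 11.63, 11.71 and 11.78 in primary and 11.79, 11.89 and 11.75 in lung lines. Its interval was wide all the same (-0.71 to 0.92), since the shared estimate of the spread includes the brain lines, where S100a4 was at 11.95, 11.55 and 10.11.

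Transcription factors and matrix genes of the epithelial-to-mesenchymal transition, by which epithelial tumor cells become motile, showed 0 of 26 members called. 1, Tagln (-0.38), a smooth muscle actin-binding protein, was at an unadjusted p under 0.05, and the median was -0.04. That is 3.85% of the list, beside 4.74% of all genes. Vim, an intermediate filament of mesenchymal cells, was at 13.29, 13.31 and 13.39 in primary and 13.31, 13.32 and 13.28 in lung lines. Snai1, a repressor of E-cadherin, differed by 0.09 (-0.05 to 0.23), Twist1 by -0.08 (-0.41 to 0.25) and Zeb1 by 0.26 (-0.01 to 0.52). Cdh1, which encodes E-cadherin, was at 9.73, 9.48 and 8.87 in primary and 9.45, 9.50 and 9.87 in lung lines, a difference of 0.25 (-0.19 to 0.68). Primary line 3 was the lowest line for Cdh1, as it was for Krt19 and Cldn3.

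Matrix proteases and their inhibitors (39 genes) and the Notch pathway (24 genes) had no member at an unadjusted p under 0.05. Among 20 integrins 1 was higher, Itgb2 (0.55, or 0.32 without lung line 3), the beta chain of the leukocyte integrins, among 22 collagens 1, Col8a1 (0.27, or 0.14 without lung line 3), and among 38 genes of TGF-beta and BMP signaling 1, Ltbp2 (0.28). Among 23 laminins and matrix glycoproteins 1 was lower, Nid1 (-0.26). Among 37 Wnt genes 2 frizzled receptors, Fzd7 (-0.25) and Fzd5 (-0.21), were lower. These counts are at or below 5.41% of each list, beside 4.74% of all genes.

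The lists with the largest shares at an unadjusted p under 0.05 among those of 20 genes or more were hypoxia response, immediate early genes, oxidative stress, cholesterol synthesis and YAP and TEAD targets, from 15.0% to 17.2% of each, beside 4.74% over all genes. No member of any of the 33 lists was called. The lists were chosen with earlier results of these data known, so these shares are no test of a list. In hypoxia response, 4 of 29 were higher and 1 lower. Car9, a membrane carbonic anhydrase that exports acid, was at 7.14, 7.21 and 7.31 in primary and 7.62, 7.69 and 7.82 in lung lines, a difference of 0.49 (95% interval 0.11 to 0.87). P4ha2, a collagen prolyl hydroxylase, had 0.36, Car12 0.35 and Higd1a 0.31, while Vegfa, the vessel growth factor, had -0.28. Glycolysis had the higher mean in lung lines for 15 of 17 genes, beside 11053 of all 19938, with a median of 0.11. Only Pgam1 (0.20) was at an unadjusted p under 0.05. Set against the mean of the primary lines, the list average was 0.07, 0.09 and 0.11 in lung lines 1 to 3. In primary lines 1 to 3 it was -0.05, -0.03 and 0.08, so primary line 3 lay above lung line 1.

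Immediate early genes, which respond within minutes to growth signals, had 4 of 26 members lower and 0 higher, with a median of -0.11. Nr4a2, an orphan nuclear receptor, was at 6.76, 6.94 and 7.60 in primary and 6.59, 6.57 and 6.40 in lung lines, a difference of -0.58 (95% interval -1.03 to -0.12), or -0.33 without primary line 3. Egr2 had -0.41, Ier2 -0.40 and Klf4 -0.36. Averaged over the list and set against the mean of the primary lines, lung lines 1 to 3 stood at -0.17, -0.07 and -0.12 and the primary lines at -0.11, 0.00 and 0.11, so the list average of primary line 1 fell among those of the lung lines. Dusp4 (-0.31) and Spry2 (-0.27), feedback inhibitors of growth factor signaling, were lower as well, and Egfr, the receptor itself, had 0.23.

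Cholesterol synthesis and uptake had 3 of 20 members lower, 0 higher and a median of -0.14. Cyp51, the sterol demethylase, was at 9.08, 8.92 and 9.43 in primary and 8.39, 8.62 and 9.04 in lung lines, a difference of -0.46 (95% interval -0.84 to -0.07), with lung line 3 inside the range of the primary lines. Hsd17b7 had -0.37 and Msmo1 -0.30, both enzymes of the later steps. The list average, set against the mean of the primary lines, was -0.29, -0.28 and 0.09 in lung lines 1 to 3 and -0.10, -0.16 and 0.26 in primary lines 1 to 3. The third line of either origin was thus the highest, and the spread among lines of 1 origin was wider than the difference between origins. In the brain lines the same average was 0.58, 0.58 and 0.35, and Cyp51 there was higher than in lung lines by 1.07 (adjusted p = 0.019, limma), a call lost without brain line 1 (adjusted p = 0.057), brain line 2 (0.061), lung line 1 (0.065) or lung line 2 (0.091).

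The unfolded protein and amino acid stress list had 4 of 37 members lower and 0 higher, with a median of -0.09. Slc7a11, the cystine transporter, was at 6.54, 7.21 and 7.38 in primary and 6.51, 6.61 and 6.58 in lung lines, a difference of -0.48 (95% interval -0.87 to -0.09), or -0.31 without primary line 3 and -0.73 without primary line 1, and primary line 1 lay among the lung lines. Trib3, a pseudokinase induced by stress, had -0.37, Dnajb9, a chaperone partner, -0.24, and Calr, a calcium-binding chaperone, -0.18. Among 33 oxidative stress genes, which also hold Slc7a11, 4 were higher, namely Gstp1 (0.25), Gclm (0.21), Prdx3 (0.20) and Keap1 (0.17). Of 27 p53 targets 3 were lower, Trp53inp1, Mdm2 (-0.29) and Phlda3 (-0.18), and 0 were higher. In either direction, the shares of the stress, oxidative stress and p53 lists were 10.8%, 15.2% and 11.1%. Over all genes the share was 4.74%.

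Cell cycle genes had 3 of 40 higher, Birc5 (0.23), Cdc25c (0.23) and Aurkb (0.21), and a median of 0.04. Of 39 respiratory chain genes 4 were higher, Ndufa2 (0.38), Sdhd (0.23), Uqcrc1 (0.22) and Cox8a (0.20). Of 28 fatty acid genes 3 were higher, Fads3 (0.25), Cpt2 (0.23) and Acadvl (0.21). In these 3 lists no member was lower at an unadjusted p under 0.05. The counts were 7.5%, 10.3% and 10.7% of the lists, beside 4.74% of all genes.

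Type I interferon genes showed single lines rather than origins. Set against the mean of the primary lines, their list average was -0.13, -0.08 and 0.32 in lung lines 1 to 3 and 0.17, -0.02 and -0.15 in primary lines 1 to 3, so the highest line of each origin was above both other lines of the other origin. Ifit1, an RNA-binding effector, was at 6.94, 6.19 and 5.83 in primary and 5.67, 5.47 and 6.63 in lung lines, a difference of -0.40 (95% interval -1.16 to 0.37), which ran from -0.75 without lung line 3 to -0.09 without primary line 1. Of 26 genes 1, Oas1a (0.39), an RNA sensor, was at an unadjusted p under 0.05, or 3.85% of the list beside 4.74% of all genes.

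**Figure D4:**
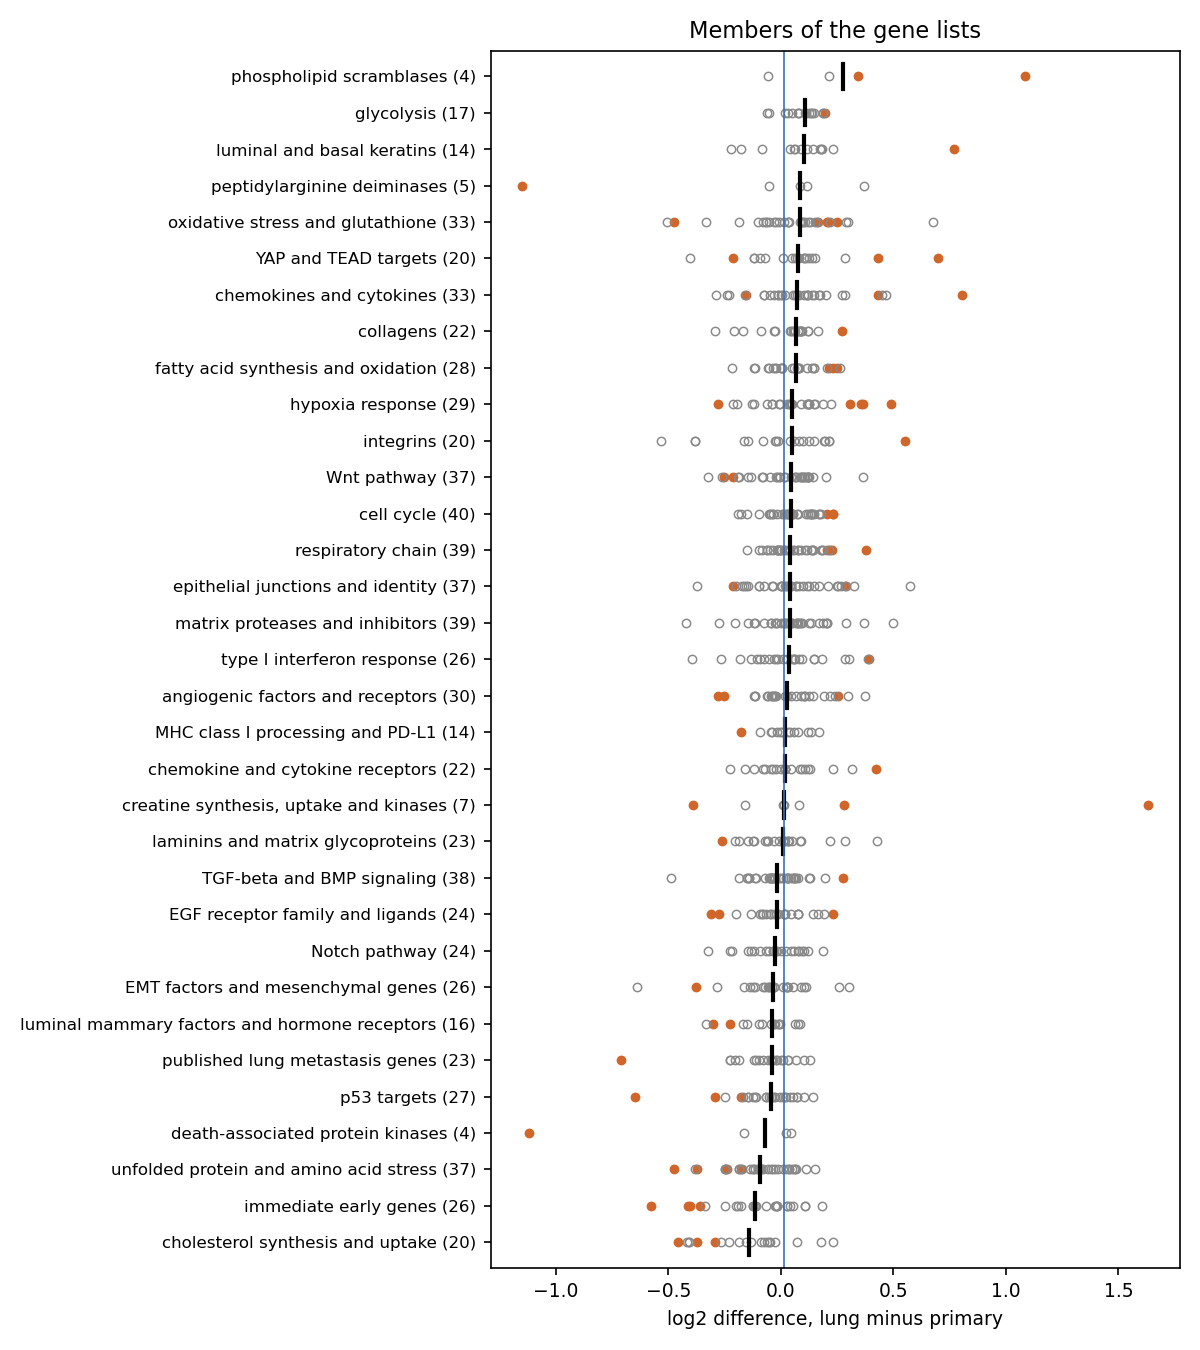
Log2 difference (lung minus primary) of each member of the 33 gene lists, with the number of members measured in brackets; filled dots are members at an unadjusted p under 0.05, black bars are list medians and the vertical line is the median of all genes (0.01). List medians run from -0.14 (cholesterol synthesis and uptake) to 0.28 (phospholipid scramblases), and the dots farthest out are Gatm, Plscr2, Padi3 and Dapk1. The lists were chosen with earlier results of these data known, so their medians and outlying dots are no test of a list.

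The genes in which 1 line stood at least 2-fold beyond all 5 others were counted, a rule set after the values were seen. Among 14211 genes with a mean at or above 4.21 there were 19. In 16 of them the line was primary line 3, in 2 primary line 2, in 1 primary line 1, and in 0 a lung line. In primary line 3, Mgp, which inhibits mineral deposition in matrix, was at 10.35 beside 9.08 to 9.21 in the other 5 lines. Sparcl1, a secreted matrix protein, was at 6.12 beside 4.03 to 4.48, and Rbms3, an RNA-binding protein, at 6.06 beside 3.99 to 4.29.

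In the same line Krt19, a keratin of luminal epithelium, was at 7.53 beside 8.56 to 9.09, and Inpp4b, a phosphoinositide phosphatase, at 5.59 beside 6.91 to 7.10. Acta2, smooth muscle actin, was at 7.43 in primary line 2 beside 5.61 to 6.03. Rab25, an epithelial trafficking GTPase, was at 6.85 in primary line 1 beside 5.02 to 5.79. Krt19 gives a case where the line decides the size of the difference between origins: it was 0.77 (95% interval 0.22 to 1.32) with primary line 3 and 0.41 without it. Lung line 1, which stood apart in distance, held none of these genes.

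**Figure D5:**
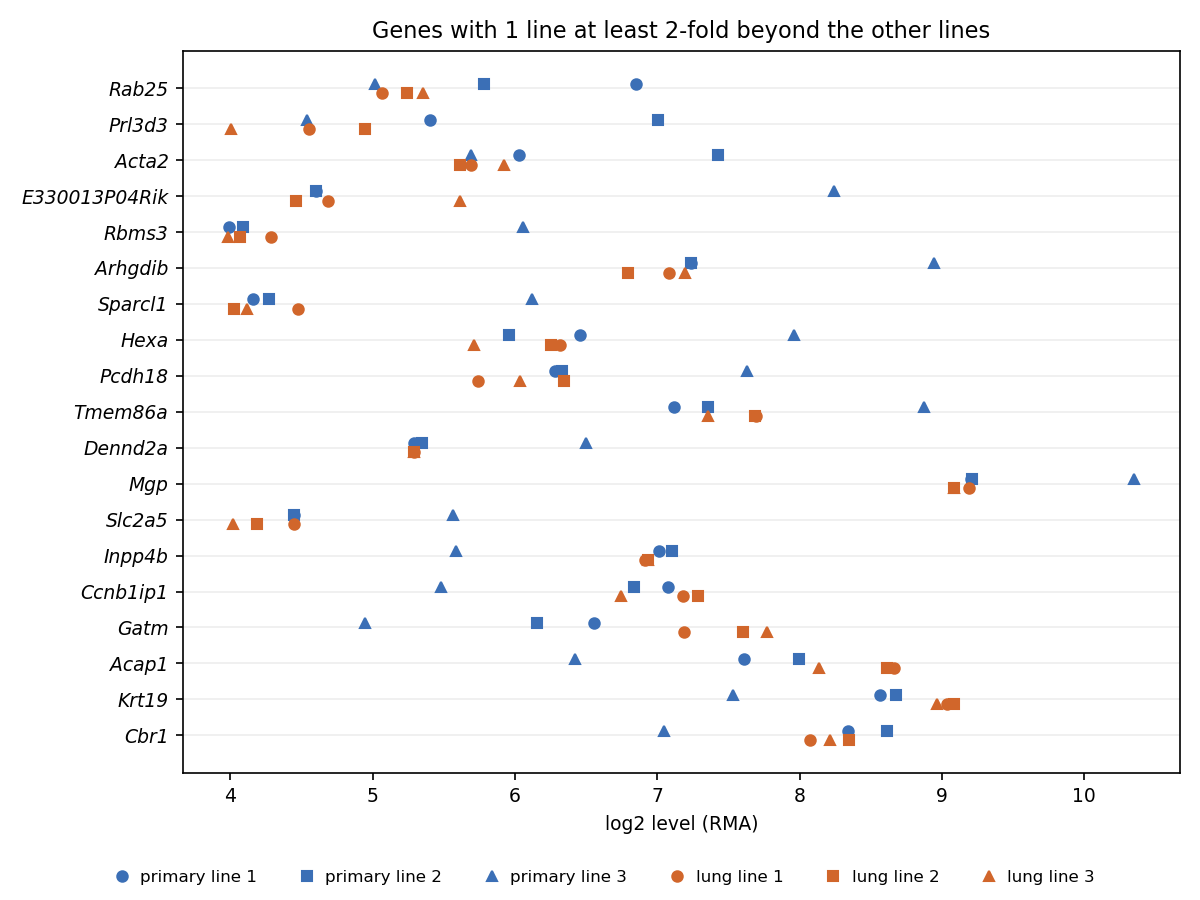
Log2 level (RMA) in the 6 lung and primary lines of the 19 genes in which 1 line lies at least 2-fold beyond the other 5; color is the origin and the marker shape is the line number. The line apart is primary line 3 (blue triangle) in 16 of the 19.

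Among genes that meet the same limits on level and kind, F13a1 and Usp17ld were in the top 3 by range within both origins. F13a1, the coagulation factor XIII A chain, was at 6.97, 6.28 and 9.23 in primary and 6.09, 8.41 and 6.53 in lung lines. Usp17ld, a deubiquitinase of a multicopy family whose copies share sequence, was at 6.24, 6.85 and 8.58 in primary and 6.67, 8.11 and 8.58 in lung lines. In both genes the lines ranged widely within each origin and overlapped between origins. For such genes the comparison says little: the 95% interval was -2.23 to 1.27 for F13a1 and -0.80 to 1.92 for Usp17ld.

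For the genes that set brain lines most apart from primary lines, the lung lines were set beside both. Slc14a1, a urea transporter, was at 8.19, 8.25 and 7.95 in primary, 8.39, 8.02 and 7.52 in lung and 5.29, 4.97 and 4.55 in brain lines. Podnl1, a small leucine-rich matrix protein, was at 7.48, 6.77 and 7.39 in primary, 7.12, 7.10 and 7.50 in lung and 9.25, 9.32 and 9.18 in brain lines. Gadd45b, a stress-induced regulator of growth arrest, was at 8.14, 8.37 and 8.50 in primary, 8.32, 8.41 and 8.60 in lung and 9.92, 10.21 and 10.48 in brain lines. In Slc14a1, Podnl1 and Gadd45b lung and primary lines overlapped, as they did in Thbs1, and the brain lines lay clear of both. In Ccn2, Ccnd2, Foxc2 and Tmem184a, the others of the 8 leading genes, they did not overlap. There the lung lines lay on the side of the brain lines. Tmem184a was at 6.28, 6.30 and 6.37 in primary, 6.48, 6.91 and 6.84 in lung and 7.58, 7.62 and 7.59 in brain lines. Its lung-minus-primary difference of 0.43 was not called.

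Brain minus lung was -3.04 in Slc14a1, 2.01 in Podnl1 and 1.76 in Gadd45b (adjusted p = 0.0019, 0.0020 and 0.0019, limma), and lung minus primary was -0.15, 0.03 and 0.10. Ccnd2, a cyclin of the G1 phase, was in between in the lung lines: it was at 7.03, 6.94 and 6.25 in primary, 7.69, 7.32 and 7.33 in lung and 9.66, 9.85 and 9.31 in brain lines. Its lung-minus-primary difference of 0.71 (95% interval 0.24 to 1.18) did not pass and was 0.46 without primary line 3, and its brain-minus-lung difference of 2.16 did (adjusted p = 0.0031, limma). Over all 93 genes chosen by the naming rule, brain minus lung passed in 21, beside 1.98% of all genes, but many of the 93 were chosen with the lung or brain lines in view.

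The lines were also checked for markers of lung tissue and of immune cells. Sftpc, Scgb1a1 and other markers of alveolar type 2 and club cells, the secretory cells of the alveoli and airways, averaged 4.49 to 4.71 and 3.34 to 3.44 in the lung lines, beside 4.61 and 3.37 to 3.43 in the primary lines. Of the 8 type 2 markers 4 were at or above 4.21 in all 6 lines, and of the 4 club markers 1. Alveolar type 1 markers stood higher: 5 of 6 were, with averages of 5.58 to 5.66 in lung and 5.54 to 5.56 in primary lines. So were 3 of 6 ciliated cell markers, 5 of 6 smooth muscle and pericyte markers and 5 of 9 fibroblast markers. None of the 7 neutrophil markers was at or above 4.21 in all 6 lines, and 5 of 11 macrophage markers were. So were 2 of 6 T cell, 2 of 4 B cell and 2 of 6 NK cell markers, and 3 of 8 endothelial markers. All 8 markers of mammary epithelium were, with averages of 9.74 to 10.22 in lung and 9.51 to 10.08 in primary lines. Krt8 and Krt18, keratins of simple epithelia, were at 12.43 to 13.03 in every lung and primary line.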

How the data were processed

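Each of 9 cell lines had its RNA hybridised to an Affymetrix Mouse Gene ST array. The deposited values are log2 levels made by the authors with RMA, per the submitters' processing notes. The log base is not stated and was inferred from the range of the values. The RMA software version is not given in the sources used here. Array medians ran from 5.06 to 5.19. Precision is limited by how many arrays there are.

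Of 35557 probe sets, 21789 had 1 gene symbol in the platform annotation, 1621 several and 12147 none. The brightest probe set stood for a gene where several existed (999 genes). Differences were tested with limma 3.58.1 (R 4.3.3; lmFit, eBayes) fitted to the 9 arrays together, with origin as the only factor, 6 residual and 3.72 prior degrees of freedom, and Benjamini-Hochberg adjustment over 19938 genes at 0.05. Bounds came from one-sided tests in both directions against 1.5-fold, 2-fold and 4-fold. The code was tested on simulated data. Each line is from a separate mouse, and no batch is recorded. No arrays were identical.

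Named were the 12 genes with the smallest p in each direction, up to 2 members per list with the largest difference, the 8 leading genes of brain against primary and the 3 widest ranges per origin, with group means at or above 4.21 and without predicted, olfactory, vomeronasal, histone, immunoglobulin or small RNA genes. The members and lists were chosen with earlier results of these data known. The 33 lists and 15 marker lists held 892 symbols, of which 840 were matched and the rest not analysed here. Mouse numbers are shared between origins. Deviations of same-numbered brain and lung lines correlated at 0.284, 0.130 and 0.241, and those of lung and primary lines at 0.221, 0.0785 and 0.00798. The main fit did not use the numbers as pairs for any contrast, and a fit with the mouse number as a replicate block was run as an alternative.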

Additional observations from a re-analysis of the deposited data

Results flagged for a closer look

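The brain and lung lines share the primary lines as controls, so the difference between their effects is brain minus lung, tested directly (limma, adjusted over all genes). It passed in 21 of the 93 named genes, given here as log2 differences, beside 1.98% of all genes. Many of the 93 were chosen with the lung or brain lines in view, which favors such calls. In 9 the call was kept without any single line: Ccn2 1.55, Ccnd2 2.16, Dll4 -1.73, Foxc2 -0.93, Gadd45b 1.76, Podnl1 2.01, Slc14a1 -3.04, Thbs1 0.94 and Tmem184a 0.85. All of these but Dll4 were the 8 genes named for the smallest p in brain against primary. Brain minus lung uses the same brain lines, so that choice favored these calls. Dll4, a Notch ligand, was at 7.22, 8.03 and 7.29 in primary, 7.11, 7.33 and 7.13 in lung and 5.20, 5.54 and 5.65 in brain lines, so the brain lines stood apart and the other origins overlapped. Foxc2, a transcription factor of mesenchymal development, was at 8.14 to 8.30 in lung and 8.31 to 8.49 in primary lines, beside 7.22 to 7.40 in brain lines.

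In the other 12 the call was lost without at least 1 line. They were Car9 0.93, Cck -1.69, Ccl2 -1.08, Ccnjl -0.41, Ckb -0.80, Cyp51 1.07, Krt80 0.80, Padi3 1.04, Plscr4 -0.64, Slc7a11 -0.95, Tnip1 0.50 and Wnt7a 1.496. Where a call was lost with 1 line left out, its adjusted p ran from 0.054 to 0.115 (limma). The lines were any of the lung lines for Car9 and Ckb, lung lines 1 or 2 for Krt80, and any brain or lung line for Ccnjl and Slc7a11. They were brain lines 2 or 3 or any lung line for Tnip1 and Wnt7a, and for Wnt7a also primary line 2. Ccnjl was lost with median centring as well (adjusted p = 0.059). Among these, Cck, Ccl2 and Padi3 had brain lines at the level of the primary lines and lung lines away from both. Each was named for a small p in lung against primary, where no gene was called. Brain minus lung uses the same lung lines, so that choice favors such a pattern. Ckb, Car9, Ccnjl and Tnip1 had lung lines between the primary and the brain lines.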

How the results depend on the processing

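Over 22 alternatives, no gene was called in lung against primary in 21. Without moderation of the variances 1 was, B430212C06Rik, at 3.42 in primary and 3.47 in lung lines with nearly equal values within each, and none of the 21 brain-minus-lung calls held (0 of 93 named genes). The smallest adjusted p (limma) of the other alternatives ran from 0.212 to 0.994. Array weights raised the genes at an unadjusted p under 0.05 to 1644. The share bounded below 2-fold stayed between 99.2% and 99.6% and that below 1.5-fold between 94.0% and 97.6%.

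With the mouse number as a replicate block, 0 genes were called, 1202 were at an unadjusted p under 0.05, and brain minus lung passed in 22 named genes, all 21 of the main calls among them. Leaving out 1 line at a time, genes without overlap numbered 1737 to 4171, since fewer lines overlap less, and brain-minus-lung calls 10 to 26. Without lung line 1 and primary line 3 together (chosen after seeing the data) 6988 genes had no overlap.

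Signs turned in 7 named genes, none of them called between lung and primary. F13a1 was 0.24 with array weights, ran from -1.19 to 0.38 with 1 line left out and was 0.85 without lung line 1 and primary line 3. With 1 line left out, Cldn9 ran from -0.11 to 0.79, Podnl1 from -0.19 to 0.16, Slc14a1 from -0.36 to 0.080 and Tfap2c from -0.56 to 0.028. Without both lines Tfap2c was 0.059, Lama3 -0.016 and Lamb3 -0.091. The cause was not tested.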
